A study of Homo sapiens with 18 samples.

Results

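Chromatin accessibility was described at 10 genes that act in negative feedback on ERK signalling or lie directly downstream of it: DUSP4, DUSP5, DUSP6, SPRY1, SPRY2, SPRY4, SPRED1, SPRED2, ETV4 and ETV5. Members were the 1 kb windows of the deposited table that overlap the GENCODE span of each gene on hg19 (GRCh37), extended by 50 kb on both sides. This gave 130 of the 89428 windows in the table. A window was a promoter window when it overlapped the stretch from 1000 bases before to 100 bases after the start of a protein-coding transcript, and was otherwise distal. Of the 130 windows, 33 were promoter windows of the 10 genes, 2 were promoter windows of the neighbouring gene DHX8 near ETV4, and 95 were distal. The genes were chosen by what the mean FPKM of the 3 libraries of each line had already shown in these same data, so their levels and fold changes are given as a description, and no test on them is used as support.

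ATAC-seq, in which the Tn5 transposase inserts adapters into open chromatin, was measured in 6 established ovarian cancer cell lines with 3 libraries each, 18 in all. The sensitive lines to platinum were A2780, PEA1 and PEO1, and their resistant partners were CP70, PEA2 and PEO4. CP70 was derived from A2780 in culture, whereas each of the other pairs was established from 1 patient with high-grade serous ovarian cancer before and after resistance arose, so resistance and every other difference between the lines of a pair cannot be told apart. All lines were cultured in RPMI-1640 with 10% fetal bovine serum; the labels do not say whether the libraries of a line came from separate cultures, so their spread may be technical. Start windows of epithelial and ovarian marker genes were in the table for 7 of 8 genes (not MUC16), against 0 of 3 blood, 0 of 3 endothelial and 1 of 3 fibroblast markers. The means of these 7 start windows lay between 0.61 (PAX8) and 1.10 FPKM (WT1) in A2780, where the median of all gene starts was 2.03 FPKM. In CP70 they lay between 0.90 (PAX8) and 1.99 FPKM (KRT18), against a median of 3.14 FPKM. The range was 0.767 (KRT7) to 3.37 FPKM (PAX8) in PEA1, against 3.18 FPKM, and 3.03 (CDH1) to 16.5 FPKM (WT1) in PEO1, against 7.28 FPKM. The share of reads in windows, given further on, was lowest in A2780, and its part in these levels was not tested.

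ERK is the last kinase of the RAS, RAF and MEK cascade, and its activity is held in check by the products of genes that it switches on. The DUSP proteins described here are MAP kinase phosphatases: DUSP6 removes phosphate from ERK in the cytoplasm, and DUSP4 and DUSP5 act in the nucleus. Sprouty proteins (SPRY1, SPRY2, SPRY4) and the related SPRED proteins restrain the pathway further upstream, the latter together with the RAS inactivator neurofibromin. ETV4 and ETV5 are ETS transcription factors of the PEA3 group, which are induced by the pathway and carry part of its output. Accessibility is not a measure of RNA or of ERK activity, and neither was analysed here.

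The values are FPKM, here equal to reads scaled to the whole library because all windows have the same length. The libraries held from 8963079 reads (PEO1 replicate 3) to 60435027 reads (A2780 replicate 3), and the share of reads inside the table's windows ran from 8.38 to 10.0% in A2780 and from 11.8 to 15.6% in its partner CP70. The PEA1 libraries had 12.9 to 16.8% and the PEA2 libraries 17.1 to 20.7%. Both PEO lines stood higher, with 38.9 to 40.8% for PEO1 and 32.9 to 35.9% for PEO4. A level in PEO1 or PEO4 above that in A2780 therefore moves with this share, and levels are also given after dividing each library by its own median, taken over windows that average above 1 FPKM. A window held a median of 11 to 47 reads, depending on the library. Every window in the table exceeded 2 FPKM in at least 2 libraries, so regions closed in all lines are missing by construction. A window open in 1 line alone is in the table through that line, so its low levels elsewhere are a description.

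The stretches of 250 bases before the canonical start of 4 of the genes are shown because their start windows carry the comparisons that follow. They come from GRCh37 and read 5′ to 3′ on the strand of the gene. Capitals mark the letters of 5 searched motifs on both strands: the ETS core CCGGAAGT, the CRE TGACGTCA, its part TGACG, the AP-1 motif TGAGTCA and the CArG box. The CRE letters contain TGACG, so a full CRE would be counted under both.
DUSP5, chr10:112257415-112257664, + strand: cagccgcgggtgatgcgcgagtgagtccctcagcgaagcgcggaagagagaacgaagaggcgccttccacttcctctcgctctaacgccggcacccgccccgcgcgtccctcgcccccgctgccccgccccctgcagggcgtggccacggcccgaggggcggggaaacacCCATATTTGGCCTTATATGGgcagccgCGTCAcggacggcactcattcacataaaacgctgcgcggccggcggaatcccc
DUSP6, chr12:89746279-89746528, - strand: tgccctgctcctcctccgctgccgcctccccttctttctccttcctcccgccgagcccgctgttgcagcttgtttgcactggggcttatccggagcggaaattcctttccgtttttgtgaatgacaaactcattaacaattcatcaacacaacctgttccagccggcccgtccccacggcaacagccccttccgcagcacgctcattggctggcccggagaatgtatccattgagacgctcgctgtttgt
SPRY2, chr13:80915262-80915511, - strand: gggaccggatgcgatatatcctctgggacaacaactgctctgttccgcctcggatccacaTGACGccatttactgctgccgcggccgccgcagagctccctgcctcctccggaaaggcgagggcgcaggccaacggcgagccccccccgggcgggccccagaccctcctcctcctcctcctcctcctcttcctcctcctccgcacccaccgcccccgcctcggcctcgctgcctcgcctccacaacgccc
ETV5, chr3:185826879-185827128, - strand: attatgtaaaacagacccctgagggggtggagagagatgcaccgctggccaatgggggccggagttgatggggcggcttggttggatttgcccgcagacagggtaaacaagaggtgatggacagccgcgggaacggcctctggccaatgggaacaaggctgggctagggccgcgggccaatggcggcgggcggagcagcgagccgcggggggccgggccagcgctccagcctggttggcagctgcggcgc
In the 300 bases from 250 before to 50 after the start, the CArG letters, which serum response factor binds, were found in 1 of the 10 genes, DUSP5, where 2 copies lie side by side. They were in 1.20% of 19856 protein-coding promoters of this length. TGACG was found in 4 of the 10 (DUSP4, DUSP5, SPRY2 and SPRED2) and in 29.3% of all promoters. The ETS core was found in none of the 10 and in 6.17% of all, the full CRE in none and 2.68%, and the AP-1 letters in none and 3.57%; these exact letters being missing says nothing of the factors.

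Stretches of 100 bases from the called distal windows with the largest fold change in each pair and direction are also shown, with DUSP6 8.6 kb downstream of its start because its line means spanned the widest range at that gene. They read on the + strand of GRCh37 and are centred on the first AP-1 match, in capitals, or on the window where it has none.
DUSP6 35.6 kb downstream, chr12:89710650-89710749: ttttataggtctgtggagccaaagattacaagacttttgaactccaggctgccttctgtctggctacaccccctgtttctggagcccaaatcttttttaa
DUSP6 8.6 kb downstream, chr12:89737650-89737749: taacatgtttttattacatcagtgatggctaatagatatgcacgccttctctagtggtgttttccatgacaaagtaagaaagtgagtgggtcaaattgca
DUSP6 40.0 kb upstream, chr12:89786250-89786349: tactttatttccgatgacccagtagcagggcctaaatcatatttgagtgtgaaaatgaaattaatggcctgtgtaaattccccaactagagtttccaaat
DUSP5 27.7 kb downstream, chr10:112285310-112285409: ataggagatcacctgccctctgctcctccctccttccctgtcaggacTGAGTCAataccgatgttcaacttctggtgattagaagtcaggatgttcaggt
SPRY4 45.0 kb downstream, chr5:141659550-141659649: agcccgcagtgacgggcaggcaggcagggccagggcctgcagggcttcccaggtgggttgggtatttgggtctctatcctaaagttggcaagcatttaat
SPRED1 145.6 kb downstream, chr15:38690472-38690571: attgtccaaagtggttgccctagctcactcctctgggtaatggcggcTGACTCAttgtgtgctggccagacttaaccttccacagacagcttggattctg
AP-1 letters were present in 25 of the 95 distal windows (26.3%), against 35.3% of the 64052 distal windows in the table. Among the 13 distal windows that were highest in A2780, 1 held them (7.69%, against 13.6% of all distal windows highest in A2780). Among the 32 that were highest in PEA2, 10 held them (31.2%, against 38.2%).

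The number of windows per gene differed widely. DUSP5 had 35 windows (2 promoter, 33 distal), DUSP6 and SPRED2 15 each, SPRY4 14, SPRY1 11, SPRY2 and ETV5 10 each, SPRED1 and ETV4 7 each, and DUSP4 6. Together they were 8.26% of the 1574 windows tiled over these spans, while 2.60% of all tiled windows are in the table. The nearest window beyond the 50 kb limit lay 50.1 kb from DUSP5, at chr10:112206600-112207600, with means of 2.59 FPKM in PEA2 and 3.17 FPKM in PEO1 and at most 0.713 FPKM in the other lines.

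Accessibility at the gene starts was compared across the 6 lines. As deposited, the start window was highest in PEO1 for 8 of the 10 genes and in PEO4 for SPRED2 and ETV4, and it was lowest in A2780 for 6 genes. The highest line mean was a median of 5.0 times the lowest over the 10 genes, and 2.89 times after dividing by the library median. After that division PEA2 was lowest for 8 of the 10 genes, and the highest line was A2780 or CP70 for 3 genes each, so the order of the lines depends on the scaling. Of all promoter windows, 46.7% were highest in PEO1 and 40.0% in PEO4 as deposited. After the division 33.3% were highest in CP70 and 11.2% in A2780. After median centring all gene starts had a median log2 fold change of -0.61 in PEA2 against PEA1. The share of all gene starts that were lowest in each line was not computed. The counts of the lowest line are therefore not read as particular to these genes.

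**Figure D1:**
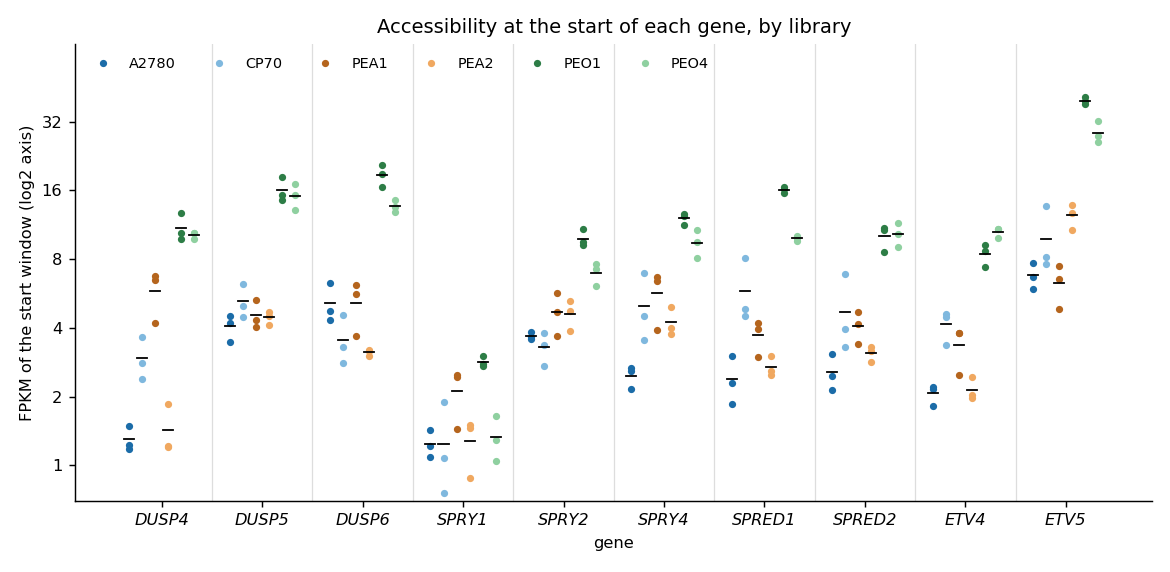
FPKM (log2 axis) of the window that holds the start of each gene, 1 point per library and a bar at the mean of 3, in 6 lines. The PEO1 and PEO4 libraries lie above those of the other lines except at SPRY1, and ETV5 reaches the highest values, with a PEO1 mean of 39.6 FPKM.

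ETV5 had the most accessible start of the 10 genes in every line. Its start window (chr3:185826600-185827600, which also lies in an intron of DGKG) measured 6.71, 7.73 and 5.93 FPKM in A2780 and 13.7, 8.20 and 7.62 FPKM in CP70. The PEA1 libraries held 6.57, 7.48 and 4.84 FPKM, and PEA2 had 13.8, 10.8 and 12.7. The PEO1 libraries were at 39.5, 41.1 and 38.1 FPKM and the PEO4 libraries at 27.6, 32.1 and 26.1. Every PEO1 library was above every PEO4 library, and both stood above the other lines, while PEA2 and CP70, CP70 and A2780, and A2780 and PEA1 overlapped. Its level was 5.43 times the median of all gene starts in PEO1 and 1.98 times that median in PEA1.

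DUSP6 is the cytoplasmic ERK phosphatase. Its start window (chr12:89746200-89747200) was at 18.7 ± 2.06 FPKM in PEO1 (SD, n = 3) and 13.6 ± 0.853 in PEO4. Its libraries were at 4.74, 6.31 and 4.31 FPKM in A2780 and at 4.55, 3.29 and 2.81 for CP70. PEA1 showed 5.61, 6.17 and 3.69 FPKM, against 3.19, 3.18 and 3.02 for PEA2. PEA1 and A2780, A2780 and CP70, and CP70 and PEA2 overlapped. Relative to the median gene start of the same line it was at 2.52 in A2780 but 1.13 in CP70, and at 2.57 in PEO1. The 3 protein-coding genes whose start windows followed DUSP6 most closely over the 6 line means were B4GALT6 (Pearson's r = 0.997 over 6 lines), MIA3 (0.996) and C18orf54 (0.995), against a median r of 0.80 over 13594 genes. These r are a description over 6 line means of the deposited FPKM.

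SPRY2, the Sprouty member most often described as an inhibitor of receptor tyrosine kinase signalling, was most open in the PEO lines as deposited, but not after scaling. Its start window (chr13:80914500-80915500, in the first exon) measured 3.69 ± 0.147 FPKM in A2780 (SD, n = 3), and for CP70 it was 3.29 ± 0.536. PEA1 stood at 4.70 ± 1.00 FPKM next to PEA2 with 4.61 ± 0.684. PEO1 had 9.83 ± 0.864 FPKM, above PEO4 with 6.99 ± 0.776. A2780 and CP70 overlapped, as did PEA1 and PEA2, whereas the PEO1 libraries (9.21, 10.8 and 9.47 FPKM) were all above those of PEO4 (7.21, 7.63 and 6.13). Divided by the library median, the level was highest in A2780 (4.58), with 2.87 in PEO1, 2.60 in PEO4 and 2.43 in PEA2. Relative to the median gene start of the same line it was 1.82 in A2780, 1.77 in PEA2 and 0.974 in PEO4. The closest start windows over the 6 line means were DRC1 (r = 0.997), LHFPL3 (0.997) and RSPO2 (0.996), with a median of 0.79 over all genes.

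SPRY1 had the least accessible start of the 10 genes by line mean in all 6 lines. Its start window ranged from a mean of 1.24 FPKM in CP70 to 2.84 FPKM in PEO1, and relative to the median gene start it stayed below 1 in all 6 lines (0.185 in PEO4 to 0.667 in PEA1). DUSP4, a nuclear phosphatase of ERK and other MAP kinases, differed most among the lines, 8.46 times between its extremes. Its start window held 10.4, 12.7 and 9.81 FPKM in PEO1 and 10.4, 10.5 and 9.81 in PEO4. PEA1 stood at 6.50, 6.73 and 4.22 FPKM, and CP70 at 3.64, 2.39 and 2.81. The lowest were PEA2 at 1.21, 1.21 and 1.86 FPKM and A2780 at 1.19, 1.49 and 1.22. PEA2 and A2780 overlapped at the bottom of this order, and PEO1 and PEO4 at its top.

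The remaining starts, those of DUSP5, SPRY4, SPRED1, SPRED2 and ETV4, lay between 2.07 FPKM (ETV4 in A2780) and 5.82 FPKM (SPRED1 in CP70) in A2780, CP70, PEA1 and PEA2, and between 8.44 FPKM (ETV4 in PEO1) and 16.1 FPKM (SPRED1 in PEO1) in the PEO lines. The DUSP5 start, at 4.07 to 5.22 FPKM, overlapped between every neighbour in the order among those 4 lines.

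Resistant and sensitive partners were then set against each other over all windows with limma on log2(FPKM + 0.1), keeping windows that averaged above 1 FPKM in the 6 libraries of the pair. For all windows, called means a log2 fold change over 2 in size with a Benjamini-Hochberg adjusted p below 0.001; for start windows, changed means an adjusted p below 0.05. The background is the share of all tested windows, or of all tested starts of protein-coding genes. A fold change on this scale understates the change of low windows. In the A2780 and PEA pairs the SE comes from limma's trend with the mean, not from the window's own spread.

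In CP70 against A2780, 61 of the 130 windows were tested; limma called 0 higher (background 0.428%) and 3 lower (background 0.369%). Of the windows above A2780, 28 had an unadjusted p below 0.05, given without a background share, and 0 of these a log2 fold change over 2, and edgeR also called 0. The 3 were all distal windows downstream of DUSP6, open in A2780 and low in every other line. They entered the table and passed the filter of the test through A2780 alone, so this contrast is partly set by the selection. Of the 10 start windows, 5 were higher in CP70 (background 43.9%), those of DUSP4, SPRY4, SPRED1, SPRED2 and ETV4, and 0 were lower (background 1.48%), also at an unadjusted p below 0.05 and by edgeR. The median of all windows lay at 0.59 on the log2 scale. After centring each library on its median, 2 start windows were higher (background 5.56%) and 2 lower (background 8.31%). Quantile normalization gave 2 higher (background 9.57%) and 2 lower (background 12.8%). Subtracting the median of the surrounding 5 Mb left 0 higher (background 0.968%) and 0 lower (background 2.28%). The GC correction left 0 higher (background 2.01%) and 2 lower, those of DUSP6 and SPRY2 (background 4.93%). None of the 5 calls was kept by the 5 Mb subtraction or the GC correction. Without A2780 replicate 3 the 5 became 3, and without CP70 replicate 1 a lower start window, that of DUSP6, was added.

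In PEA2 against PEA1, 108 windows were tested; 9 were called higher (background 11.2%) and 2 lower (background 1.42%). The 9 higher windows were 8 distal windows of DUSP5 and 1 window near ETV5, and the lower ones were single distal windows of SPRY4 and SPRED2. Among the start windows, ETV5 was higher (1 of 10, background 17.6%), and DUSP4, DUSP6, SPRY1 and ETV4 were lower (4 of 10, background 35.7%). After median centring 9 of the 10 start windows were lower (background 62.3%) and 1 was higher (background 11.6%), and of the windows of the 10 genes 2 were called higher and 8 lower. Shares of all windows called are for the main fit alone, so called windows at other settings have no background here. The 5 Mb subtraction and the GC correction each left 0 windows called higher, and after the former 6 start windows were lower (background 32.8%) and 0 higher (background 5.54%). The count of 4 became 1 without PEA1 replicate 1 or replicate 2, 7 without PEA1 replicate 3 and 2 without PEA2 replicate 1. The 9 higher windows became 15 without PEA1 replicate 2, and the 2 lower windows became 1 without PEA1 replicate 2 and 5 without PEA1 replicate 3.

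In PEO4 against PEO1, 86 windows were tested; 1 was called higher (background 2.72%), a distal window of DUSP6, and 3 lower (background 5.78%), at SPRED1, SPRED2 and ETV4. The start windows of DUSP6, SPRY1, SPRY2, SPRY4, SPRED1 and ETV5 were lower (6 of 10, background 30.9%) and that of ETV4 was higher (1 of 10, background 26.4%). After median centring 4 start windows were higher (background 51.9%) and 2 lower (background 15.6%). The direction turned with the 5 Mb subtraction, after which 6 were higher (background 32.1%) and 0 lower (background 10.1%), and 1 fit over all 18 libraries gave 0 higher (background 17.1%) and 3 lower (background 20.8%). The start of ETV4 no longer counted as higher without PEO1 replicate 3, PEO4 replicate 1 or PEO4 replicate 2.

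**Figure D2:**
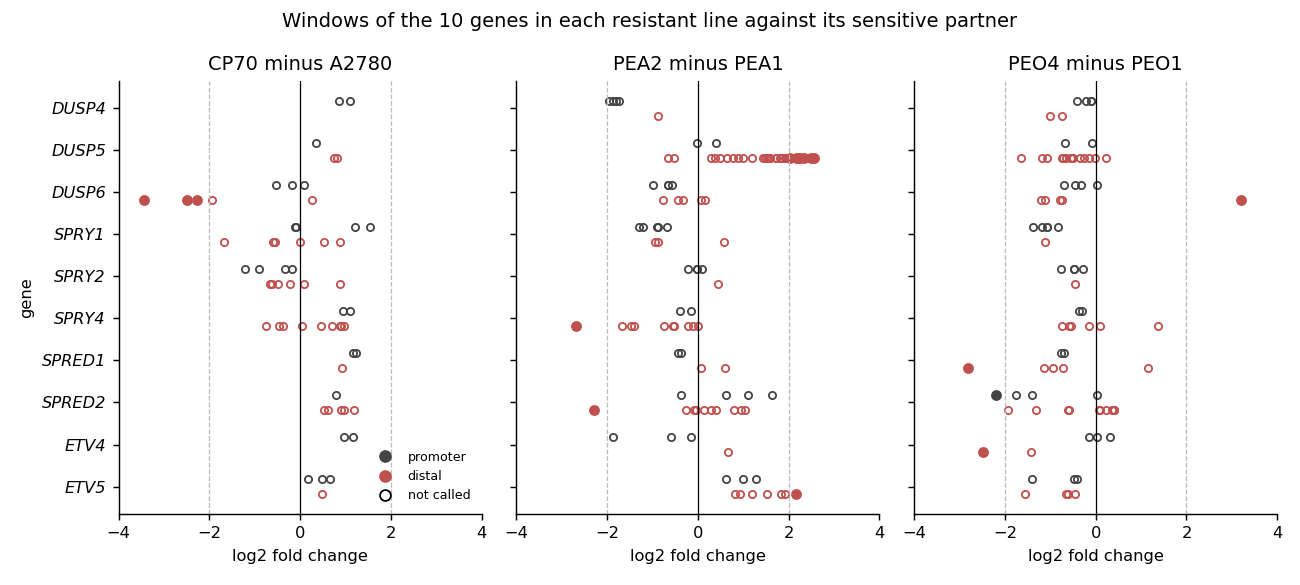
Log2 fold change of every tested promoter (grey) and distal (red) window of the 10 genes in the 3 pairs, resistant minus sensitive, with called windows filled and dashed lines at 2 and -2. The 2 windows at the neighbouring DHX8 start are not drawn. Filled points sit at DUSP6 in CP70 and PEO4, at DUSP5 in PEA2, and singly at ETV5, SPRY4, SPRED1, SPRED2 and ETV4.

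Over the promoter windows tested, the median log2 fold change was 0.58 for CP70 (24 windows, all promoter windows 0.59). It was -0.39 for PEA2 (33 windows, all -0.17; -0.59 without PEA1 replicate 3), whereas PEO4 had -0.47 (33 windows, all -0.06). Over the distal windows tested the median was 0.27 for CP70 (35 windows, all distal windows 0.58). It was -0.0022 without CP70 replicate 1 and 0.55 without CP70 replicate 3, so the value rests on single libraries. PEA2 had 0.78 (73 windows, all 0.70), and -0.61 was found for PEO4 (51 windows, all -0.48).

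The DUSP6 windows lower in CP70 lay 7.7, 8.6 and 35.6 kb downstream of the start, in intergenic sequence beyond the end of the gene. At 35.6 kb (chr12:89710200-89711200) the A2780 libraries held 3.59, 4.48 and 3.04 FPKM and the CP70 libraries 0.455, 0.419 and 0.0419. No library of the other 4 lines exceeded 0.527 FPKM, and the log2 fold change in CP70 was -3.45 (SE 0.28).

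At 8.6 kb (chr12:89737200-89738200) the A2780 libraries held 2.23, 2.52 and 2.02 FPKM (112 to 128 reads) and the CP70 libraries 0.227, 0.479 and 0.503 FPKM (3 to 12 reads). PEA1 had a mean of 0.327 FPKM, PEO4 0.211, PEA2 0.0864 and PEO1 0.0372 FPKM, the last from 0 to 1 read per library. The log2 fold change was -2.28 (SE 0.29), and without CP70 replicate 1 it was -1.99 and no longer called. The adjoining window at 7.7 kb (chr12:89738100-89739100) went from 3.94 ± 0.669 FPKM in A2780 to 0.608 ± 0.0692 in CP70, a log2 fold change of -2.50 (SE 0.25); it shares 100 bases with the former window and is not independent of it. A further window 23.9 kb downstream, named after its values were seen, stood at 2.54 FPKM in A2780, 0.626 in CP70 and 0.632 in PEA1, and with a log2 fold change of -1.95 it was just short of the threshold, which it passed without A2780 replicate 1, CP70 replicate 1 or CP70 replicate 3.

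At the same gene other distal windows were open in other lines. The window 40.0 kb upstream (chr12:89785800-89786800) was called higher in PEO4, with libraries at 2.50, 2.06 and 2.39 FPKM (43 to 48 reads) against 0.101, 0.175 and 0.223 FPKM (1 to 2 reads) in PEO1, and line means of 0.260 to 0.304 FPKM in the other 4 lines. The window is in the table through PEO4 alone. Its log2 fold change of 3.21 (SE 0.38) depends on the added 0.1 FPKM because PEO1 is so low. Without PEO4 replicate 1 the window fell under the 1 FPKM filter and was not tested. The windows 22.9 and 23.8 kb upstream, outside the naming rule and picked after seeing them, were highest in PEA2 (2.35 and 1.91 FPKM) and PEA1 (2.11 and 1.79 FPKM). The window 2.2 kb upstream (chr12:89748000-89749000), the highest distal window of the gene, followed its start instead, with 8.87 ± 0.738 FPKM in PEO1, 5.10 ± 0.363 in PEO4 and 1.70 to 2.30 FPKM in the other 4 lines.

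**Figure D3:**
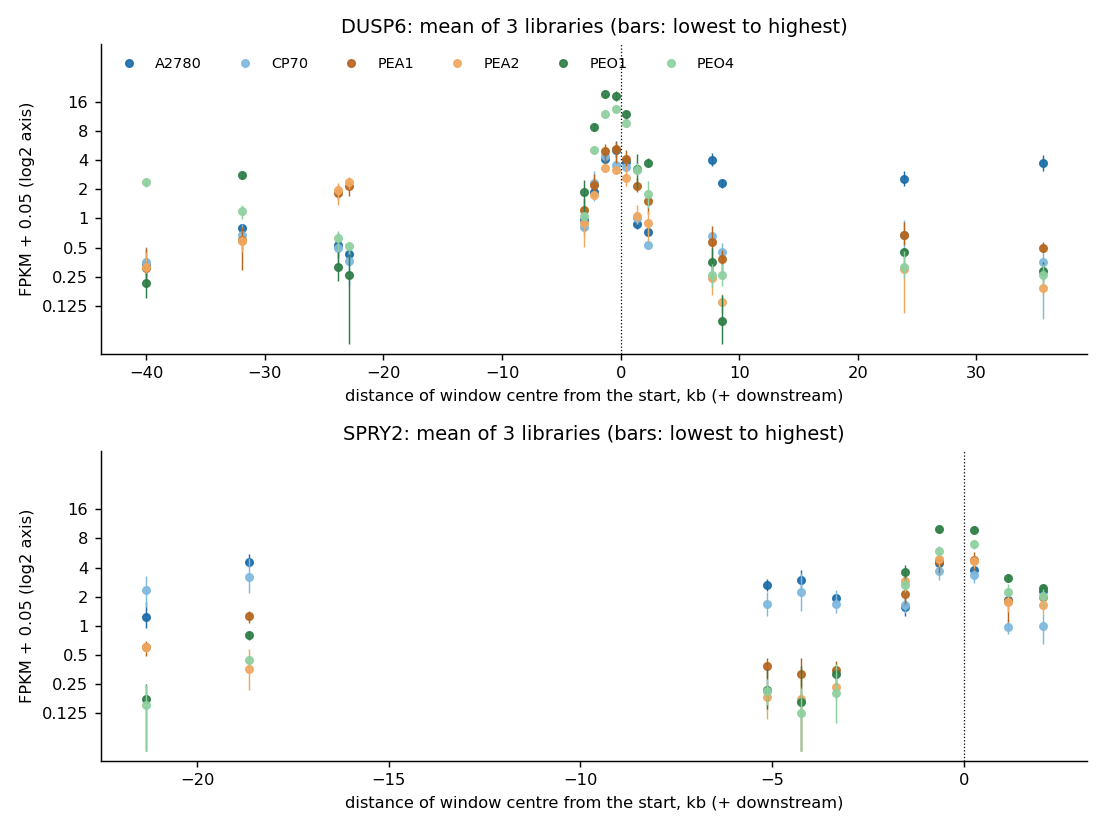
FPKM + 0.05 (log2 axis) of every window of DUSP6 (top) and SPRY2 (bottom) against the distance of its centre from the start in kb, as means of 3 libraries in 6 lines with bars from the lowest to the highest library. Downstream of DUSP6 the A2780 points stand apart from the other lines at 7.7, 8.6, 23.9 and 35.6 kb. Upstream of SPRY2 the A2780 and CP70 points lie above the other lines at 3.3, 4.2, 5.1, 18.6 and 21.3 kb.

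Upstream of SPRY2 the A2780 and CP70 libraries were both open where the other lines were not. At 4.2 kb (chr13:80919000-80920000) the A2780 libraries held 2.69, 3.72 and 2.41 FPKM and the CP70 libraries 3.48, 1.74 and 1.38. The other 12 libraries lay between 0 and 0.417 FPKM. A2780 and CP70 overlapped, and every library of both was above every other library. The window at 18.6 kb, given outside the naming rule, had line means of 4.55 FPKM in A2780 and 3.11 in CP70, against 1.20 for PEA1 and 0.302 to 0.754 for the other lines. The window nearest the start among the distal ones, 1.5 kb upstream, had no such gap, with 1.51 ± 0.363 FPKM in A2780 and 3.58 ± 0.793 in PEO1.

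The other Sprouty genes also held windows that were highest in A2780, but there the levels of CP70 and PEA1 lay closer together. The window 3.1 kb upstream of SPRY1 (chr4:124314300-124315300) was at 2.55, 3.56 and 2.79 FPKM in A2780 and at 1.36, 0.599 and 0.754 for CP70. PEA1 had 0.865, 0.561 and 0.671 FPKM, and no library of the other lines exceeded 0.202. CP70 and PEA1 overlapped, and the A2780 libraries were all above those of CP70. The window 39.6 kb upstream of SPRY4 (chr5:141743700-141744700) fell in the order A2780 (3.82 ± 0.548 FPKM), CP70 (2.26 ± 0.607), PEA1 (1.48 ± 0.374), PEA2 (1.24 ± 0.211), PEO4 (0.229 ± 0.125) and PEO1 (0.166 ± 0.0613), where PEA1 and PEA2 overlapped, as did the PEO lines. The highest distal windows of SPRY1, 22.1 kb downstream, and of SPRY4, 32.4 kb upstream, varied little, with ratios of the highest to the lowest line mean of 2.95 and 1.85.

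Over the 3 Sprouty genes, 15 of 24 distal windows (62.5%) had their highest mean in A2780 or CP70, against 4.78% of all distal windows. After dividing by the library median it was 19 of 24, against 21.5%. These 3 genes were pooled with their levels known, so the shares are a description and not read as a trait of Sprouty genes. As deposited, DUSP6 had 4 of 11 such windows. SPRED1 had 0 of 5 and SPRED2 0 of 11, and DUSP4, DUSP5, ETV4 and ETV5 also had 0. Over the 10 genes it was 19 of 95, and 33 of 95 after the division by the library median. Over the 10 genes A2780 alone was highest in 13 of 95 distal windows (13.7%, all distal windows 0.448%), 20 (21.1%, all 7.66%) after that division. PEO1 was highest in 28 distal windows (29.5%, all 47.1%) and PEA2 in 32 (33.7%, all 20.7%), of which 25 belong to DUSP5. In promoter windows PEO1 was highest in 29 of 33 (87.9%, all promoter windows 46.7%), which became 5 of 33 (15.2%, all 10.9%) after the division. Windows of 1 gene are neighbours and are not independent.

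**Figure D4:**
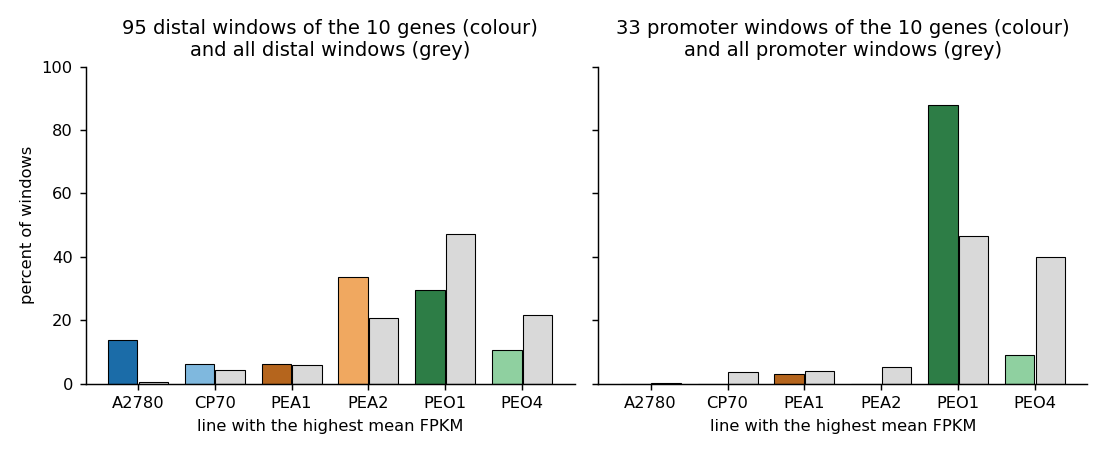
Percent of windows whose highest mean FPKM is in each line, for the 95 distal windows (left) and 33 promoter windows (right) of the 10 genes in colour, beside all distal or promoter windows of the table in grey. A2780 holds 13.7% of the distal windows of the 10 genes and 0.448% of all distal windows, and PEO1 holds 87.9% of the promoter windows of the 10 genes.

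DUSP5, the nuclear phosphatase specific for ERK, had 33 distal windows, centred from 40.7 kb upstream to 38.5 kb downstream of the start. The 8 called higher in PEA2 lay between 16.0 and 30.4 kb downstream, beyond the end of the gene, with PEA1 means of 0.307 to 0.836 FPKM, PEA2 means of 2.16 to 4.55 FPKM and log2 fold changes of 2.03 to 2.56. Without PEA2 replicate 1 those at 16.9, 17.8 and 28.6 kb were no longer called, without PEA1 replicate 2 that at 16.9 kb, and without PEA1 replicate 3 that at 30.4 kb. At 16.0 kb (chr10:112273200-112274200) the PEA2 libraries held 5.61, 4.28 and 3.77 FPKM and the PEA1 libraries 1.12, 0.810 and 0.575, and the means of the other 4 lines lay between 0.493 and 0.659 FPKM. Every PEA2 library was above every library of the other lines, which overlapped one another.

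At 27.7 kb (chr10:112284900-112285900) PEA2 held 4.62, 2.77 and 3.95 FPKM and PEA1 0.673, 0.623 and 0.384, but PEO1 was higher still at 5.56, 5.50 and 5.46 and PEO4 stood at 1.98, 2.98 and 2.24. The log2 fold change was 2.56 (SE 0.25) in PEA2 and -1.19 (SE 0.17) in PEO4. The next window, at 28.6 kb, had the same order with lower values, 2.16 ± 0.537 FPKM in PEA2 and 2.67 ± 0.132 in PEO1. At 15.1 kb (chr10:112272300-112273300), where the line means spanned the widest range of the gene's distal windows, PEA2 reached 8.30 ± 1.86 FPKM, PEO1 3.74 ± 0.755, PEA1 2.47 ± 0.594 and PEO4 1.20 ± 0.563, while A2780 and CP70 held 0.619 ± 0.193 and 0.546 ± 0.185.

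The difference between PEA2 and PEA1 at DUSP5 was shared by the surrounding 5 Mb, whose windows had a median log2 fold change of 1.40. After subtracting that median the 8 windows ranged from 0.63 to 1.15, under the fold threshold. The DUSP5 start window did not share it: 4.12, 4.68 and 4.53 FPKM in PEA2 overlapped 5.29, 4.33 and 4.03 in PEA1, a log2 fold change of -0.03 (SE 0.23), or -1.43 after the subtraction. In this pair the median was 0.70 over all distal windows and -0.17 over all promoter windows. All gene starts had a median of -0.32 after the subtraction, the same direction as the DUSP5 start but a smaller size. The share of starts as low as that of DUSP5 was not computed. Copy number was not measured here, and its part in these values was not tested.

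**Figure D5:**
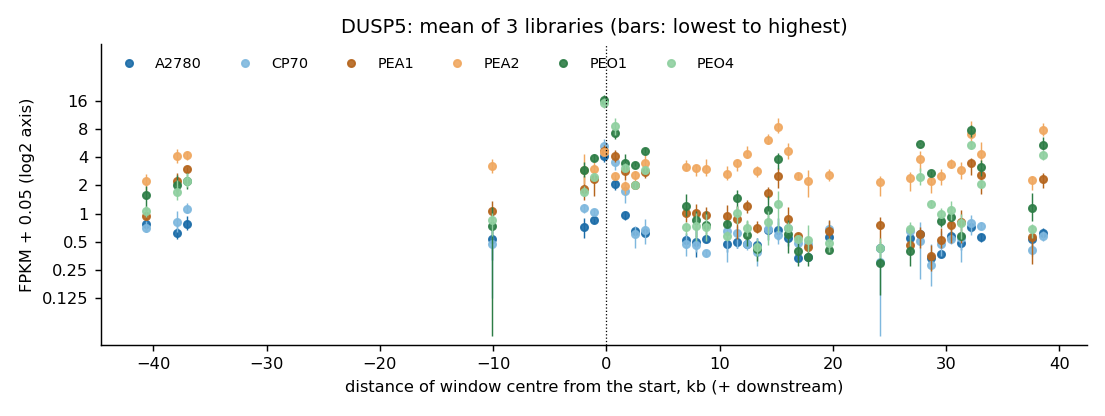
FPKM + 0.05 (log2 axis) of the 35 windows of DUSP5 against the distance of the window centre from the start in kb, as means of 3 libraries in 6 lines with bars from the lowest to the highest library. PEA2 is the highest line in 25 of the 33 distal windows, while at the start PEO1 (16.0 FPKM) and PEO4 (15.2 FPKM) are highest and PEA2 is at 4.44 FPKM.

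A similar shift was seen at ETV5, where all 10 tested windows were higher in PEA2 than in PEA1 (log2 fold changes of 0.62 to 2.16) and the surrounding 5 Mb had a median of 1.53. The start window of ETV5 was higher by 0.98 (SE 0.24) and became lower, at -0.55, after the subtraction, where all gene starts had a median of -0.32. The intronic window 5.2 kb downstream (chr3:185821200-185822200) was at 6.69 ± 0.0213 FPKM in PEO1, 3.64 ± 0.611 in PEA2 and 2.21 ± 0.218 in PEO4. PEA1 (1.19 ± 0.157 FPKM), CP70 (0.495 ± 0.191) and A2780 (0.377 ± 0.0741) followed, and of neighbours in this order CP70 and A2780 alone overlapped. The called window, 40.7 kb upstream in an exon of DGKG, was at 0.544 FPKM in PEA1 and 2.77 FPKM in PEA2; it was named after its values were seen, it was 0.63 after the subtraction, and it was not called without PEA1 replicate 1.

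DUSP4 moved the other way. In PEA2 all 5 tested windows of DUSP4 were below PEA1, with log2 fold changes of -1.95 to -0.88, and the start window was lower by 4.07-fold (log2 fold change -1.95, SE 0.23), just short of the fold threshold, which it passed without PEA1 replicate 3 or PEA2 replicate 3 and, at -2.32, after median centring. The surrounding 5 Mb had a median of -1.08, and after subtraction the start window was at -0.87. In CP70 the start was 2.27-fold higher than in A2780 (log2 fold change 1.11, SE 0.26), and in PEO4 it overlapped PEO1.

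SPRY4 and SPRED2 each had a distal window that was open in PEA1 and low in PEA2. At SPRY4, 45.0 kb downstream (chr5:141659100-141660100), the PEA1 libraries held 4.33, 4.77 and 3.50 FPKM and the PEA2 libraries 0.605, 0.809 and 0.355, a log2 fold change of -2.69 (SE 0.25), or -2.89 after subtracting the surrounding 5 Mb. The same window was higher in PEO4 (3.31, 3.98 and 3.79 FPKM) than in PEO1 (1.21, 1.13 and 1.78), at 1.38 (SE 0.21), without overlap in either pair.

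At SPRED2, 72.6 kb downstream of the canonical start in an intron (chr2:65586600-65587600), PEA1 held 2.72, 3.12 and 1.10 FPKM and PEA2 0.495, 0.462 and 0.177, a log2 fold change of -2.29 (SE 0.29). It was -1.94 and not called without PEA2 replicate 3, and without PEA1 replicate 2 the window fell under the 1 FPKM filter. All other lines had means of at most 0.514 FPKM there.

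In PEO4 the lower windows were at SPRED1, SPRED2 and ETV4. The SPRED1 window 145.6 kb downstream of its start (chr15:38690100-38691100), beyond the end of this long gene, was at 5.87, 5.67 and 5.80 FPKM in PEO1 and 0.639, 0.624 and 0.996 in PEO4, with 1.56 ± 0.464 in PEA2, 1.02 ± 0.39 in PEA1 and at most 0.331 FPKM in any A2780 or CP70 library. Its log2 fold change was -2.81 (SE 0.22), and -1.28 after subtracting the median of the surrounding 5 Mb, -1.53, which leaves it uncalled. The SPRED1 start was lower in PEO4 (log2 fold change -0.70, SE 0.11) and turned to 0.83 after the subtraction.

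The SPRED2 window 64.5 kb downstream of the canonical start (chr2:65594700-65595700) is a promoter window of an alternative start of the gene. It was at 3.04, 3.49 and 3.34 FPKM in PEO1 and 0.698, 0.624 and 0.598 in PEO4 (log2 fold change -2.20, SE 0.25), which was -1.93 after subtracting the 5 Mb median, -1.85 after median centring, -1.81 after quantile normalization and -1.44 after the GC correction, in each case uncalled. It moved the other way in the PEA pair. There PEA1 held 0.705, 0.623 and 0.479 FPKM and PEA2 2.09, 2.08 and 2.04 (log2 fold change 1.64, SE 0.27). The canonical start of SPRED2 differed by 0.03 (SE 0.12) between PEO4 and PEO1. The ETV4 window 45.9 kb upstream (chr17:41669100-41670100), in an intron of DHX8, was at 3.84, 3.40 and 2.90 FPKM in PEO1 and 0.407, 0.480 and 0.697 in PEO4, with all other line means at most 0.596 FPKM, and its log2 fold change of -2.49 (SE 0.27) became -2.75 after the subtraction.

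Other genes of the pathway were counted at their start windows, from lists put together with earlier results of these data known. The shares of all start windows given above as background apply to them: CP70 43.9% higher and 1.48% lower, PEA2 17.6 and 35.7%, PEO4 26.4 and 30.9%. The medians over all start windows were 0.58, -0.23 and -0.02. Of 15 genes of the RAS to ERK cascade, 7 (46.7%) were higher and 0 lower in CP70 (median log2 fold change 0.49), close to that background. The counts were 3 higher and 6 lower (40.0%) for PEA2 (median -0.25), and 3 higher and 2 lower (13.3%) for PEO4 (median 0.06). NF1, which encodes neurofibromin, was at 4.49 FPKM in PEA1 and 1.26 FPKM in PEA2 (log2 fold change -1.79). Of 7 other MAP kinase phosphatases, CP70 had 4 higher and 0 lower, PEA2 had 2 higher and 1 lower, and PEO4 had 3 higher and 1 lower, among them DUSP2 with a log2 fold change of 2.14. Of 10 other genes that respond to ERK, 4 were higher and 0 lower in CP70. PEA2 had 1 higher and 7 lower, and PEO4 had 3 higher (33.3%) and 1 lower of 9 tested. After median centring the higher genes in CP70 were 0 of the cascade, 0 of the other phosphatases and 1 of the ERK-responsive genes (background 5.56%). In the same order, centring gave 9, 5 and 8 lower in PEA2 (background 62.3%) and 10, 4 and 5 higher in PEO4 (background 51.9%). Within this list FOSL1, an AP-1 subunit, was at 0.942 FPKM in A2780 and 4.60 FPKM in CP70 (log2 fold change 2.17). The start of the receptor gene EPHA4 stood at 0.909 FPKM for PEA1 and 7.09 FPKM for PEA2 (log2 fold change 2.85). NF1, DUSP2, FOSL1 and EPHA4 were named after their values were seen, each for the largest change of its list in that pair. By limma the minimum log2 fold change in CP70 was 0.34 over the cascade genes, 0.21 over the other phosphatases and -0.46 over the other ERK-responsive genes.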

How the data were processed

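ATAC-seq libraries of 6 cell lines were analysed, grouped by the labels. The authors removed duplicates with Picard, aligned paired reads uniquely to hg19 with Bowtie2, removed blacklisted and mitochondrial reads, and deposited FPKM, which for windows of one length is RPM (reads scaled to the library total); versions and any shift of read ends were not given in the sources used here. In all libraries 100% of values were whole multiples of 1 read for a window length of 1001 bases, which gave reads per window and library totals. Totals and floors cover counting error only. Replicates were compared by chi-square per window (1.07 to 2.10), where 1 is counting error alone. The PEO1 values of 1.07 to 1.09 lie near that, so the comparison cannot show that libraries are separate. Each was counted as a library of its own by its label.

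Windows were assigned with GENCODE 44 on GRCh37 and compared per pair with limma 3.58.1 (R 4.3.3, mean-variance trend), pseudocount 0.1, minimum mean 1 FPKM; edgeR 4.0.16 on recovered reads was an alternative. The code was tested on simulated data. Named windows were each gene's start window, its distal windows of highest mean and of widest range, and up to 3 called windows per pair and direction with the largest change; others are said to be chosen after seeing values. The members and lists were chosen with earlier results of these data known. No column was left unused. Alternatives were the pseudocount, filters, scaling, 5 Mb and GC subtraction, a joint fit, a replicate block and leaving out each library. The study weighted counts, for which the trend stands in.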

Additional observations from a re-analysis of the deposited data

Results flagged for a closer look

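The change differed between pairs by more than 2 on the log2 scale, with an adjusted p below 0.001 by limma over all 18 libraries, at 17 named comparisons; over all windows 12.6% (PEA pair minus A2780 pair), 7.39% (PEO minus A2780) and 24.2% (PEO minus PEA) passed the same limits, and the comparisons share libraries. These values are descriptions, since the genes were proposed with the data known. Named windows include those picked for the largest change in a pair, so the 17 are not read as above these shares.

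The PEA pair differed from the A2780 pair by -3.06 at the DUSP4 start, by 2.01, 2.93 and 2.82 at DUSP5 16.0, 27.7 and 28.6 kb downstream, by 2.40 at SPRED2 64.5 kb downstream and by -2.60 at SPRY4 45.0 kb downstream. The PEO pair differed from the A2780 pair by -2.07 at SPRED1 0.7 kb and by -2.55 at SPRED1 145.6 kb downstream.

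The PEO pair differed from the PEA pair by -3.36, -2.07, -3.74 and -3.56 at DUSP5 15.1, 16.0, 27.7 and 28.6 kb downstream, by -2.09 at ETV4 33.3 kb upstream, by -3.09 at ETV5 5.2 kb downstream, by -3.41 at SPRED1 145.6 kb downstream, by -3.84 at SPRED2 64.5 kb downstream and by 4.07 at SPRY4 45.0 kb downstream. At the SPRED2 and SPRY4 windows the PEA and PEO pairs moved in opposite directions with no overlap of libraries within a pair. The same held, among others, at DUSP5 27.7 kb and ETV5 5.2 kb downstream.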

How the results depend on the processing

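Counts of windows are given as higher and lower in the resistant line. Called windows at these settings have no share of all windows beside them, so their counts are not read as particular to the 10 genes. With a pseudocount of 1, the windows called became 0 lower in CP70, 0 higher and 0 lower in PEA2, and 0 higher and 0 lower in PEO4, because it shrinks low windows. With a minimum mean of 5 FPKM the same counts were all 0, since fewer windows were tested; the start windows became 0 higher in CP70 and 0 lower in PEA2. Median centring gave 5 windows lower in CP70, 2 higher and 8 lower in PEA2, and for start windows 2 higher and 2 lower in CP70, 9 lower in PEA2, and 4 higher and 2 lower in PEO4. Quantile normalization gave 5 lower in CP70, 1 higher and 10 lower in PEA2, and for start windows 2 higher and 2 lower in CP70 and 7 lower in PEA2. Subtracting the median of each 5 Mb gave 0 higher in PEA2, 2 higher and 1 lower in PEO4, and for start windows 0 higher in CP70, 0 higher in PEA2, and 6 higher and 0 lower in PEO4. The GC correction gave 0 higher and 5 lower in PEA2, and for start windows 0 higher and 2 lower in CP70 and 0 higher in PEO4. edgeR called 6 lower in PEA2; over the 3 pairs it called 4, 19 and 5 windows, among them all 3, 11 and 4 that limma called. A single fit over 18 libraries changed start windows to 1 lower in CP70 and to 0 higher and 3 lower in PEO4.

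The median log2 fold change of distal windows in PEA2 became 0.18 without a filter, 1.71 with 5 FPKM, 0.41 by median centring, 0.38 by quantile normalization, 0.070 by the 5 Mb and 0.30 by the GC subtraction. In PEO4 it became -0.33, 0.079, -0.27, -0.30, 0.090 and -0.22 in the same order. In CP70 it was -0.31, -0.33 and -0.27 by median centring, quantile normalization and GC; with 5 FPKM no distal window was left. For promoter windows in CP70, median centring gave -0.00298, quantile normalization -0.020, the 5 Mb subtraction 0.23 and GC -0.054; in PEA2, 5 FPKM gave 0.98, median centring -0.76 and classing windows by their centre -0.66; in PEO4, median centring gave -0.13 and the 5 Mb subtraction 0.073. The ratio of the highest to the lowest line became 2.89 when each library was divided by its median. The cause of these shifts was not tested.

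The 5 Mb subtraction turned the sign at these 8 start windows, among others: SPRED2 in CP70 (-0.036), ETV4 (0.27) and ETV5 (-0.55) in PEA2, and DUSP6 (0.39), SPRY2 (0.40), SPRY4 (0.19), SPRED1 (0.83) and ETV5 (0.55) in PEO4. The start of DUSP4 in PEO4 also turned, from -0.094 to 0.073. Of all 1287 values of named windows under an alternative, 1001 stayed within 1 SD of the main value.

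Leaving out 1 library at a time gave 6 to 15 windows higher and 1 to 5 lower in PEA2 and 0 to 1 higher in PEO4. For start windows it gave 3 to 5 higher and 0 to 1 lower in CP70, 1 to 7 lower in PEA2 and 0 to 1 higher in PEO4.

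Replicate numbers did not pair the libraries: the correlation of same-numbered deviations ran from -0.41 to 0.045. With the replicate block the windows called were 3 lower in CP70, 9 higher and 2 lower in PEA2, and 1 higher and 3 lower in PEO4, as without it.

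In the A2780 and PEA pairs limma took the spread wholly from its trend with the mean, so p-values and SEs there do not use each window's own spread. In PEO1, 1 FPKM is 8.97 to 11.5 reads per library, and levels near 0 are not separable there.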
